A study of Homo sapiens with 12 samples.

Results

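The genes described here are 42 genes of glucose breakdown and of the response to low oxygen, in a table of 17013 genes measured by mRNA sequencing in HCC1806 cells, an established triple-negative breast cancer line. They were taken by name: 4 glucose and lactate carriers, 17 glycolytic enzymes, 4 regulators of glycolytic flux, 4 genes that encode the alpha subunits of hypoxia-inducible factor (HIF) or the prolyl hydroxylases that mark them for destruction, and 13 other HIF target genes. All 42 were present in the table, each once, and no filter on low values was used, except in an alternative with at least 10 reads in every library, which removes CA9. The study compared 4 groups of 3 libraries, each from its own transfection in 1 line: cells given control siRNA (siNT) or MLK4-targeting siRNA (siMLK4, a pool of 4), each treated 24 h later with vehicle (DMSO in the labels, untreated in the methods) or with 1 µM doxorubicin for 24 h. The sample titles mark the vehicle libraries as time 0 and the doxorubicin libraries as 24 h, while the methods put both on the same schedule. If the titles hold, the drug and 24 h more of culture cannot be told apart in the doxorubicin comparisons. No oxygen or glucose condition was varied, and all cells carried an siRNA. The libraries held between 16759025 and 19302248 reads assigned to genes, with group medians of 18082509 (siNT, vehicle), 17275064 (siNT, doxorubicin), 18092154 (siMLK4, vehicle) and 18901864 (siMLK4, doxorubicin).

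Glycolysis splits glucose into pyruvate through a chain of cytosolic enzymes, and lactate dehydrogenase then turns pyruvate into lactate, which leaves the cell through monocarboxylate carriers. Tumour cells often run this route even when oxygen is present. HIF is a pair of an alpha subunit, HIF1A or EPAS1 (HIF-2 alpha), with ARNT; when oxygen is present the prolyl hydroxylases EGLN1 and EGLN3 mark the alpha subunit, VHL binds it and the proteasome removes it, so HIF activity is set largely at the protein level. Active HIF binds the letters ACGTG or GCGTG near genes for glycolysis, pH control, vessel growth, mitophagy and collagen modification. Doxorubicin is an anthracycline that poisons topoisomerase II and breaks DNA. MLK4, a kinase, is the product of MAP3K21. The study's introduction cites reports that MLK4 activates ERK and JNK in melanoma and colorectal cancer, and NF-κB in triple-negative breast cancer. It also cites reports that MLK4 restrains MAP kinase signalling in ovarian cancer cells.

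The targeted transcript was measured first. MAP3K21 (ENSG00000143674, chr1:233327724-233385148 on GRCh38) had 553, 670 and 674 normalized reads in siNT cells with vehicle, and 758, 856 and 772 with doxorubicin. In siMLK4 cells it had 103, 94.7 and 88.7 normalized reads with vehicle, and 113, 138 and 94.4 with doxorubicin. The groups did not overlap, and 15.1% of the transcript was left with vehicle and 14.5% with doxorubicin (log2 fold change −2.24 ± 0.12 and −2.37 ± 0.12, SE). Normalized reads are reads divided by the authors' size factor of each library.

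Log2 fold changes are differences of group means on the deposited variance-stabilized log2 scale, which shrinks the changes of genes with few reads. A gene was said to have risen, fallen or passed the test when limma gave it a Benjamini-Hochberg adjusted p under 0.01 over all 17013 genes and a change beyond 0.75 on that scale. Fold values are ratios of mean normalized reads, n = 3 per group throughout. The p-values measure the spread between triplicate transfections of a single line, and in a culture fewer cells with a transcript and less transcript per cell cannot be told apart.

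The epithelial identity of the line was visible in its markers. All 5 epithelial markers and all 8 basal markers were measured, led in siNT cells with vehicle by KRT19 (24865 normalized reads) and KRT5 (20878), while the 6 receptor and luminal markers summed to between 3054 and 5503 in a library, most of it ERBB2 and GATA3, and PGR stood at 0 in both vehicle groups. Few markers of other cells were listed: 1 of 5 endothelial and 2 of 6 leukocyte markers were found, with summed normalized reads of 13.5 to 67.1 and 12.9 to 64.2 in a library. Of 7 fibroblast markers 4 were listed, with sums of 310 to 837, led by COL1A1 with means of 286, 267, 529 and 405 in the 4 groups (siNT vehicle, siNT doxorubicin, siMLK4 vehicle, siMLK4 doxorubicin), levels above those of members such as CA9 and ANKRD37. COL1A1 was higher in siMLK4 than in siNT cells with vehicle (0.78). With doxorubicin LUM fell in both siRNA groups (means of 138 and 21.1, and of 190 and 16.5), and PDGFRA rose in both (2.29 and 24.7, and 2.42 and 33.1). Of the receptor and luminal markers, PGR rose in both, to means of 13.3 in siNT and 11.7 in siMLK4 cells (0.98 and 0.92). ESR1 fell in siMLK4 cells (−0.78) and did not pass in siNT cells (−0.61). Of the basal markers 5 of 8 fell with doxorubicin in siNT and 6 of 8 in siMLK4 cells (10.6% of all genes fell in each), while KRT17 (−0.01 and −0.17) and CDH3 (−0.13 and −0.04) did not pass. Their sums were 55535, 62920 and 64914 with vehicle and 27279, 28538 and 31766 with doxorubicin in siNT cells. The siMLK4 sums were 62121, 57903 and 56548 with vehicle and 21188, 20523 and 22577 with doxorubicin. The epithelial markers summed to 97831, 85663 and 73543 with vehicle and 62525, 57935 and 69662 with doxorubicin in siNT cells, and to 73976, 83592 and 103151 and then 43291, 36636 and 52181 in siMLK4 cells. Both sums were lower in every doxorubicin library than in every vehicle library of the same siRNA. Of the 5 epithelial markers, KRT18 (−1.18 in siNT and −1.28 in siMLK4 cells) and KRT19 (−1.68 and −2.47) fell. EPCAM (−0.04 and −0.05), CDH1 (−0.28 and −0.34) and KRT8 (0.44 and −0.30) did not pass, and KRT8 was higher in every siNT doxorubicin library than in every siNT vehicle library. Between the siRNAs, 3 of the 8 basal markers were lower in siMLK4 cells with vehicle (3.14% of all genes) and 4 of 8 with doxorubicin (2.93% of all genes), and 0 were higher. The part of these markers in the results below was not tested.

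Of the members, 36 had a promoter window in RefSeq (GRCh38.p14), 250 bases before to 50 after the start site, and 27 of these windows (75%) held ACGTG or GCGTG on either strand, against 62.1% of the 12030 windows of genes in the table. ACGTG alone was in 15 member windows (41.7%, against 26.4%). Stretches of 80 bases before the start site are given for genes whose transcripts moved with doxorubicin, with each match in capitals (CACGT and CACGC are the same letters read on the opposite strand, and CACGTG, also the letters of the E-box, holds a match on both). The first 6 genes fell with doxorubicin in siNT cells and the last 4 rose.
HK2: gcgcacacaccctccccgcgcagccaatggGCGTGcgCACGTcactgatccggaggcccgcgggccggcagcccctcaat
PFKL: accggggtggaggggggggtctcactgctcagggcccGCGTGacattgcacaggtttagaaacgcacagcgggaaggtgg
ALDOC: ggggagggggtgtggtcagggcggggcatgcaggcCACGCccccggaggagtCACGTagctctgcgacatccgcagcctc
ENO1: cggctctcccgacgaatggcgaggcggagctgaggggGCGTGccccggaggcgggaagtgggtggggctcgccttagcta
LDHA: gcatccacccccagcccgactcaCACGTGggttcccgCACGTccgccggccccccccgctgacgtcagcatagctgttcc
CA9: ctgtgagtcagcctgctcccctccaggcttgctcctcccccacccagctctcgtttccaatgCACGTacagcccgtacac
ADM: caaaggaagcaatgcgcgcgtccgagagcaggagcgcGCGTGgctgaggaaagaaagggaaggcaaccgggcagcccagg
P4HA1: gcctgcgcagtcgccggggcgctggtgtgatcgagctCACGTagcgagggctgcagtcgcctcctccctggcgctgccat
ANKRD37: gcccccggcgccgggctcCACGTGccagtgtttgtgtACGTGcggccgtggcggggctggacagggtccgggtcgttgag
KDM3A: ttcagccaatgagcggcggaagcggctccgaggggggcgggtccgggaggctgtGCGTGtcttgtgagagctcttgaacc

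On GRCh38.p14 the stretches on the plus strand are HK2 chr2:74834042-74834121, PFKL chr21:44299852-44299931, LDHA chr11:18394453-18394532, CA9 chr9:35673848-35673927, ADM chr11:10304935-10305014, ANKRD37 chr4:185396661-185396740 and KDM3A chr2:86441291-86441370. Those on the minus strand are ALDOC chr17:28576896-28576975, ENO1 chr1:8878716-8878795 and P4HA1 chr10:73096910-73096989. Matches stood before genes that fell and before genes that rose: 8 of the 11 windows of members that fell with doxorubicin in siNT cells held one, as did 4 of the 5 windows of members that rose. EGLN3, the member that rose most, and PDK1 had a window with no match. A match says only that the letters are there.

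The 42 genes together took 1.59% ± 0.0473 (SD, n = 3) of all assigned reads in siNT cells with vehicle. The share was 1.30% ± 0.0379 with doxorubicin, 1.45% ± 0.0458 in siMLK4 cells with vehicle and 1.12% ± 0.0252 in siMLK4 cells with doxorubicin. Most of it came from the enzymes, whose share was 1.39%, 1.09%, 1.28% and 0.934% in the same order. Per kilobase of the longest transcript, GAPDH was the most abundant member in siNT cells with vehicle at 45494 normalized reads, followed by ENO1 at 24295, LDHA at 21973, PKM at 14463 and TPI1 at 7935. The levels of HIF1A and EPAS1 per kilobase were 1320 and 825, and those of ANKRD37 and SLC2A3, among the scarcest, were 13.9 and 17.9 (25.6 and 20.7 with the annotated main transcript).

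Doxorubicin lowered more of these genes than it raised. In siNT cells 6 of the 42 members rose, against a background of 12.1% of all genes, and 13 fell, against 10.6%, that is 14.3% and 31.0% of the members. At an adjusted p under 0.05 with no limit on the change, 7 were higher (29.6% of all genes) and 24 lower (27.7% of all genes). The median log2 fold change was −0.47 over the members and 0.00 over all genes. In siMLK4 cells 4 members rose (background 12.6%) and 9 fell (background 10.6%), and at an adjusted p under 0.05 the counts were 6 higher (30.2%) and 23 lower (27.7%), with a median of −0.46 against 0.02. Mitochondrial reads made up 3.84%, 4.56% and 4.75% of the siMLK4 doxorubicin libraries and 1.74% to 3.66% of all other libraries. Their part in any comparison was not tested. The siNT and siMLK4 comparisons share no library, but they come from the same fit, which pools the spread over all groups. In both, 4 members rose, 66.7% of the first list and all of the second, and 7 fell, 53.8% and 77.8%. Over all genes, 72.9% and 69.9% of those that rose in siNT and in siMLK4 cells rose in both, and 71.8% and 71.6% of those that fell did so in both. Scaling by the total reads of each library, instead of the size factors that the authors used, moved the median of all genes to 0.18 in siNT and 0.16 in siMLK4 cells and that of the members to −0.25 and −0.27, with 7 higher and 11 lower in siNT cells and 6 higher and 7 lower in siMLK4 cells.

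**Figure D1:**
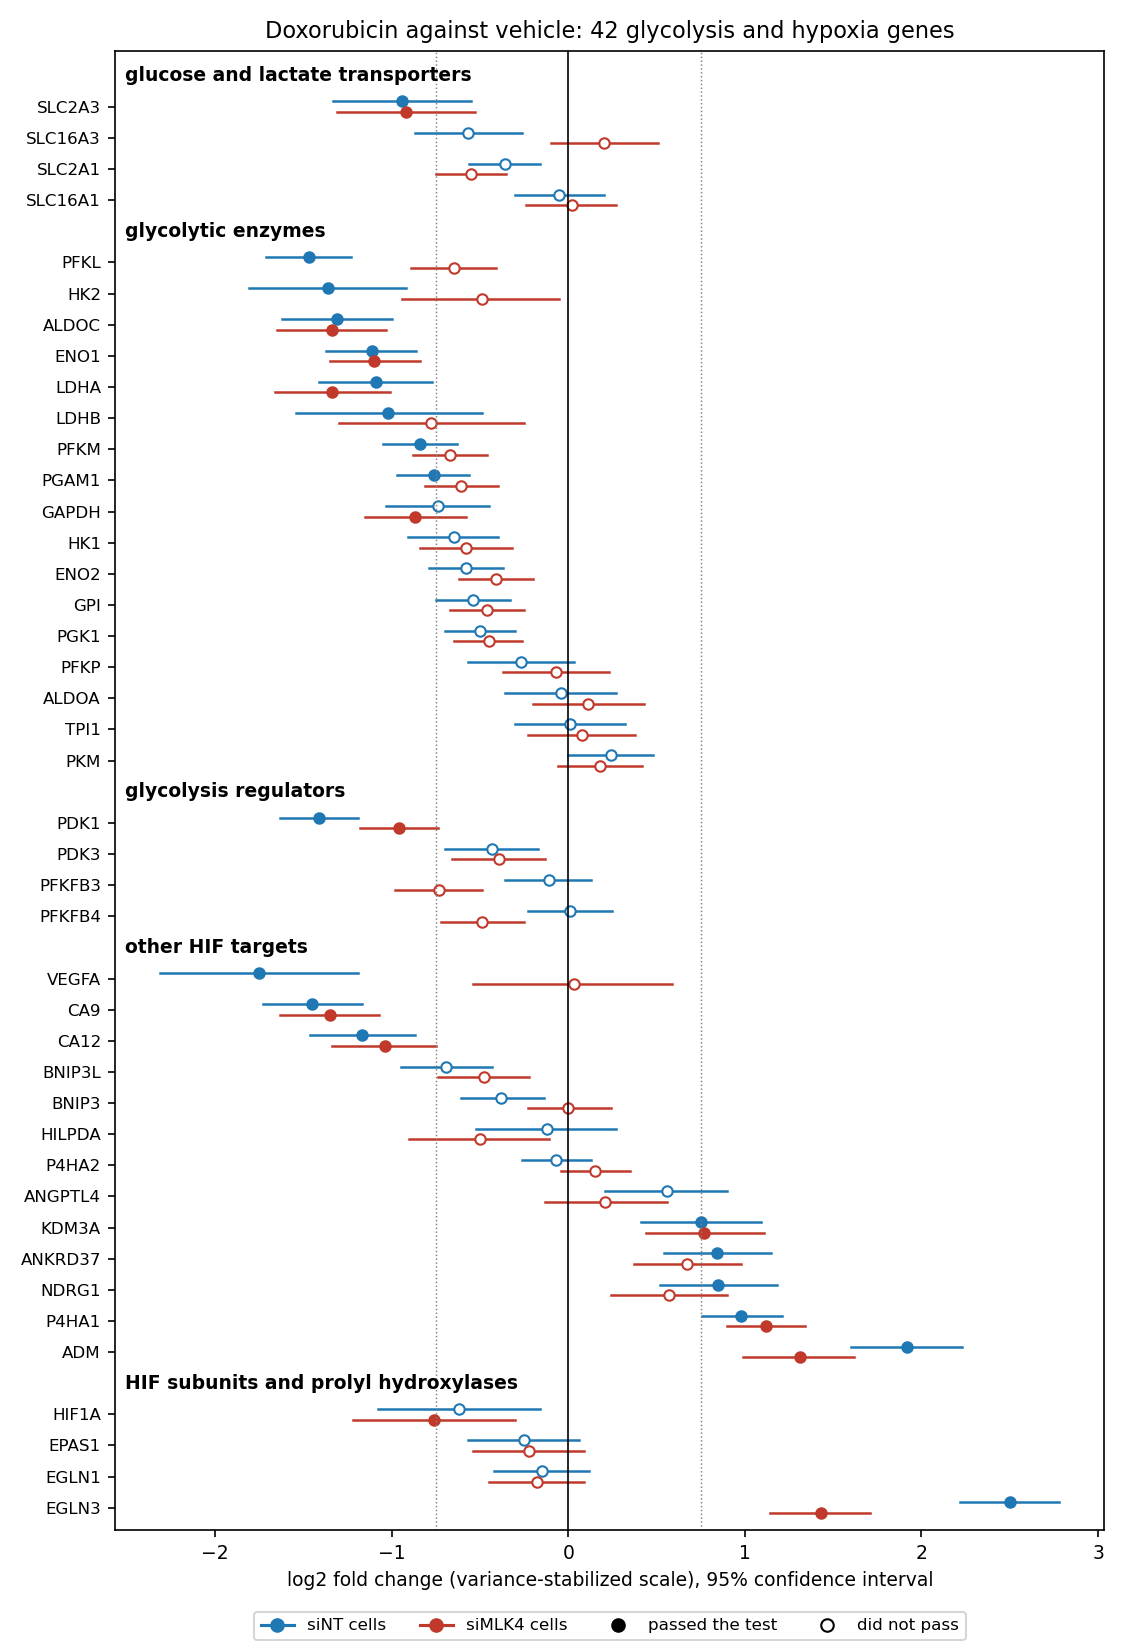
Log2 fold change of each of the 42 members, doxorubicin against vehicle, on the variance-stabilized scale (horizontal axis), with the 95% confidence interval as a line; blue is siNT and red siMLK4, filled points passed the test, and dotted lines mark a change of 0.75. The enzymes lie left of 0 except TPI1 and PKM (and ALDOA in siMLK4 cells), while EGLN3 at 2.50 and ADM at 1.92 in siNT cells lie farthest to the right.

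Among the glycolytic enzymes 8 of 17 fell and 0 rose in siNT cells (median log2 fold change −0.74; 10.6% of all genes fell and 12.1% rose), and 4 of 17 fell and 0 rose in siMLK4 cells (median −0.58; 10.6% and 12.6% of all genes). With library totals the counts were 6 and 3, with none rising. Enzymes of the first steps were among them. HK2, the inducible hexokinase, had 1020, 871 and 1008 normalized reads in siNT cells with vehicle and 324, 404 and 308 with doxorubicin, a 2.80-fold lower mean (log2 fold change −1.36 ± 0.21, SE; adjusted p = 8.1e-05). Its siMLK4 libraries had 280, 283 and 199 reads with vehicle and 160, 261 and 102 with doxorubicin, where the groups overlapped and the change of −0.49 did not pass (95% CI −0.94 to −0.05, adjusted p = 0.056). HK1, the constitutive hexokinase, had a log2 fold change of −0.65 in siNT and −0.58 in siMLK4 cells, short of the limit of 0.75.

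PFKL, the liver-type subunit of phosphofructokinase, which commits glucose to glycolysis, had 1745, 1663 and 1503 normalized reads in siNT cells with vehicle and 600, 608 and 468 with doxorubicin. It fell 2.93-fold there (log2 fold change −1.47 ± 0.11, adjusted p = 2.2e-07). The siMLK4 libraries had 1723, 1782 and 1963 reads with vehicle and 1105, 1205 and 1112 with doxorubicin, a change of −0.65 that did not pass. The muscle-type subunit PFKM had 1469, 1489 and 1556 normalized reads in siNT cells with vehicle and 761, 836 and 852 with doxorubicin (log2 fold change −0.84 ± 0.10, adjusted p = 7.6e-06; −0.61 with library totals, where the call was lost). Its siMLK4 values were 697, 602 and 626 with vehicle and 380, 414 and 361 with doxorubicin, a change of −0.67 that did not pass. Each of the 4 groups stood clear of the others. The platelet-type subunit PFKP, the most abundant of the 3 per kilobase, did not pass in either siRNA group (−0.27 and −0.07).

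The lower part of the chain held the most abundant transcripts. ENO1, the common enolase (chr1:8861000-8879190), had 65302, 63250 and 57160 normalized reads in siNT cells with vehicle and 27508, 27852 and 30261 with doxorubicin. Under siMLK4 it had 43106, 47280 and 42834 with vehicle and 20235, 18837 and 23222 with doxorubicin. It fell 2.17-fold and 2.14-fold (log2 fold change −1.11 ± 0.12 and −1.10 ± 0.12). LDHA, a subunit of lactate dehydrogenase (chr11:18394560-18408425), had 45680, 51472 and 50572 normalized reads in siNT cells with vehicle and 21198, 20942 and 27699 with doxorubicin. The siMLK4 values of LDHA were 37732, 40123 and 32977 with vehicle and 14046, 12574 and 17469 with doxorubicin, without overlap in either siRNA group (log2 fold change −1.09 ± 0.15 and −1.34 ± 0.15).

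ALDOC, an aldolase isoenzyme best known from brain, fell in both siRNA groups: 412, 369 and 473 normalized reads against 152, 135 and 131 in siNT cells, and 413, 410 and 521 against 169, 167 and 109 in siMLK4 cells. Its log2 fold changes were −1.31 ± 0.14 and −1.34 ± 0.14, with an interaction of −0.04 (95% CI −0.48 to 0.40). GAPDH, often used as a loading control, averaged 78250 normalized reads in siNT cells with vehicle and 47034 with doxorubicin (log2 fold change −0.74, just short of the limit). Under siMLK4 it averaged 78352 and 42977 and passed (−0.87 ± 0.13, adjusted p = 8.6e-05), but not with library totals (−0.68). PGAM1, phosphoglycerate mutase, passed in siNT cells (−0.76), but not with library totals (−0.53) or without vehicle library 2 (−0.73) or doxorubicin library 2 (−0.69). LDHB, the second lactate dehydrogenase subunit, passed there too (−1.02), but not without vehicle library 1 (−0.80, adjusted p = 0.013) or doxorubicin library 2 (−0.99, adjusted p = 0.011). Their siMLK4 changes of −0.61 and −0.78 did not pass.

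Several steps gave no call. PKM, pyruvate kinase, had 46845, 44085 and 39929 normalized reads in siNT cells with vehicle and 52502, 51733 and 50220 with doxorubicin, and did not pass (log2 fold change 0.24, 95% CI 0.00 to 0.48, adjusted p = 0.079). TPI1, triose phosphate isomerase, gave 0.01 (95% CI −0.30 to 0.32) in siNT and 0.08 in siMLK4 cells. PGK1, GPI and ENO2 were lower in every doxorubicin library than in every vehicle library of the same siRNA, with log2 fold changes between −0.58 and −0.41, below the limit on size.

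Among the carriers, SLC2A3, the high-affinity glucose transporter, fell from 71.6, 71.6 and 94.3 normalized reads to 17.5, 16.3 and 39.5 in siNT cells (log2 fold change −0.94 ± 0.18, adjusted p = 0.00056). In siMLK4 cells it went from 156, 145 and 210 to 66.1, 48.4 and 95.3 (−0.92 ± 0.18). Both pairs of groups stood apart, at levels far under those of SLC2A1, the main glucose transporter, which averaged 4518, 3505, 3631 and 2462 normalized reads in the 4 groups (siNT vehicle, siNT doxorubicin, siMLK4 vehicle, siMLK4 doxorubicin) and did not pass (−0.36 and −0.55). SLC16A1, a lactate carrier, gave −0.05 and 0.02. SLC16A3, the carrier known for lactate export, gave −0.57 in siNT and 0.20 in siMLK4 cells, with an interaction of 0.77 ± 0.20 (adjusted p = 0.079).

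Of the regulators, PDK1, a mitochondrial kinase that inhibits pyruvate dehydrogenase and so the conversion of pyruvate to acetyl-CoA, had 272, 284 and 306 normalized reads in siNT cells with vehicle and 75.7, 81.4 and 81.1 with doxorubicin. The siMLK4 values were 131, 139 and 118 with vehicle and 41.5, 49.2 and 47.2 with doxorubicin. It fell 3.62-fold and 2.82-fold, and none of the 4 groups overlapped (log2 fold change −1.41 ± 0.10 and −0.96 ± 0.10, adjusted p = 1.4e-07 and 3.6e-06). Its relative PDK3 did not pass (−0.43 and −0.39). PFKFB3 and PFKFB4, which make the allosteric activator of phosphofructokinase, gave −0.11 and 0.01 in siNT cells and −0.73 and −0.49 in siMLK4 cells. In siMLK4 cells both were lower without overlap but short of the limit on size. With log2 of normalized reads plus 1, 2 of the 4 regulators fell in siMLK4 cells, in place of 1.

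HIF1A (chr14:61695513-61748259) had 4071, 5266 and 6328 normalized reads in siNT cells with vehicle and 2559, 3465 and 4112 with doxorubicin; the groups overlapped and the change did not pass (log2 fold change −0.62 ± 0.21, adjusted p = 0.023). In siMLK4 cells it had 5740, 5104 and 3309 with vehicle and 2528, 2474 and 3087 with doxorubicin, and fell (−0.76 ± 0.21, adjusted p = 0.0074), but the call was lost with library totals (−0.58), with the replicate number as a block (adjusted p = 0.012), and in 6 of 12 fits that left out 1 library. Those were the fits without library 2 of any group or library 1 of either siMLK4 group, with values from −0.76 to −0.61 and adjusted p from 0.01 to 0.035. In siNT cells the change passed without vehicle library 1 (−0.79, adjusted p = 0.0082). The libraries with the highest and lowest HIF1A of each vehicle group were also those at the ends of a measure of transcript length, the slope of a library's deviation from the gene means against log2 transcript length. That slope was −0.107, 0.013 and 0.099 for siNT with vehicle and 0.11, 0.024 and −0.134 for siMLK4 with vehicle. EPAS1 followed the same order in both vehicle groups, and TPI1 and LDHB followed the reverse order. The part of the slope in these results was not tested. EPAS1 had 3606, 4055 and 5093 normalized reads in siNT cells with vehicle and 3137, 3629 and 3850 with doxorubicin. Its siMLK4 values were 7252, 6260 and 5181 with vehicle and 5185, 5715 and 4975 with doxorubicin. Both pairs of groups overlapped, and neither change passed (−0.25 and −0.22).

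EGLN3, a prolyl hydroxylase that is itself a HIF target (chr14:33924227-34462774), rose most of all members. It had 173, 147 and 113 normalized reads in siNT cells with vehicle and 1162, 1073 and 897 with doxorubicin, a 7.23-fold higher mean (log2 fold change 2.50 ± 0.13, adjusted p = 1.6e-08). In siMLK4 cells it had 116, 145 and 128 with vehicle and 438, 419 and 433 with doxorubicin, 3.31-fold higher (1.43 ± 0.13, adjusted p = 1.1e-06). Every siNT library with doxorubicin stood above every siMLK4 library with doxorubicin. EGLN1, the main oxygen sensor of most cells, gave −0.15 and −0.18, with means of 51.8 to 78.2 normalized reads, and shares exons with a neighbour, as described at the end.

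The other 13 HIF targets moved in both directions: 5 rose and 3 fell in siNT cells (12.1% and 10.6% of all genes), and 3 rose and 2 fell in siMLK4 cells (12.6% and 10.6%). With library totals 5 rose in siMLK4 cells. The median in siNT cells went from −0.07 to 0.17 with that scaling, while that of all genes went from 0.00 to 0.18. ADM, the vasodilator peptide adrenomedullin, had 220, 159 and 135 normalized reads in siNT cells with vehicle and 844, 799 and 683 with doxorubicin, 4.53-fold higher. In siMLK4 cells ADM had 145, 200 and 201 with vehicle and 544, 504 and 515 with doxorubicin, 2.86-fold higher (log2 fold change 1.92 ± 0.15 and 1.31 ± 0.15). P4HA1, the catalytic subunit of the enzyme that hydroxylates collagen prolines, rose from 2013, 1843 and 1965 to 3893, 4068 and 3703 in siNT cells. From a lower start of 979, 917 and 1112 it rose to 2253, 2433 and 2041 in siMLK4 cells. The log2 fold changes of P4HA1 were close, 0.98 ± 0.10 and 1.12 ± 0.10, while its sister subunit P4HA2 gave −0.07 and 0.15.

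NDRG1, a stress-induced gene, had 3459, 3229 and 4066 normalized reads in siNT cells with vehicle and 7191, 7094 and 5282 with doxorubicin, and passed (log2 fold change 0.85 ± 0.15). Its siMLK4 values were 3148, 3074 and 3947 with vehicle and 5354, 5648 and 4237 with doxorubicin, again without overlap but short of the limit on size (0.57 ± 0.15). KDM3A, a histone demethylase that removes methyl groups from lysine 9 of histone H3, had 318, 371 and 440 against 636, 760 and 604 in siNT cells. In siMLK4 cells KDM3A had 600, 608 and 488 against 1045, 1212 and 785. It passed in both (0.75 and 0.77), but not in siNT cells with TMM scaling (0.72) or without vehicle library 1 (0.65), vehicle library 2 (0.75) or doxorubicin library 2 (0.66), nor in siMLK4 cells without vehicle library 3 (0.68), doxorubicin library 1 (0.74) or doxorubicin library 2 (0.64). ANKRD37, an ankyrin repeat protein, rose 3.19-fold in siNT cells (0.84 ± 0.14, or 0.73 and not passing without vehicle library 3), from a mean of 20 to 63.9 normalized reads. In siMLK4 cells it was 2.51-fold higher without overlap, but short of the limit on size (0.67, adjusted p = 0.0011).

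VEGFA, the chief growth factor for blood vessels (chr6:43770184-43786487), had 5956, 2282 and 5321 normalized reads in siNT cells with vehicle and 1253, 1102 and 1259 with doxorubicin. In siMLK4 cells it had 802, 764 and 1128 with vehicle and 856, 855 and 1002 with doxorubicin. The siNT vehicle libraries were the high ones, spread over 2282 to 5956, and the other 9 libraries lay between 764 and 1259. Doxorubicin lowered VEGFA 3.75-fold in siNT cells (log2 fold change −1.75 ± 0.26, adjusted p = 6.9e-05), and gave 0.03 (95% CI −0.54 to 0.59) in siMLK4 cells.

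CA9, a carbonic anhydrase at the cell surface and a common marker of hypoxic tumour cells, was low in these cultures and lower with the drug. It had 65.8, 81 and 70.7 normalized reads in siNT cells with vehicle and 5.54, 6.11 and 8.11 with doxorubicin. In siMLK4 cells CA9 had 54.1, 53.8 and 91.9 with vehicle and 5.94, 5.84 and 8.17 with doxorubicin. The mean was 11-fold and 10.0-fold lower, which the variance-stabilized scale shows as −1.45 ± 0.13 and −1.35 ± 0.13. CA12, a second surface carbonic anhydrase, fell 2.60-fold and 2.65-fold (−1.17 and −1.04). The mitophagy receptors BNIP3 and BNIP3L did not pass (−0.38 and −0.69 in siNT, 0.00 and −0.48 in siMLK4 cells), nor did HILPDA, a lipid droplet protein (−0.12 and −0.50), or ANGPTL4, a lipase inhibitor (0.56 and 0.21).

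**Figure D2:**
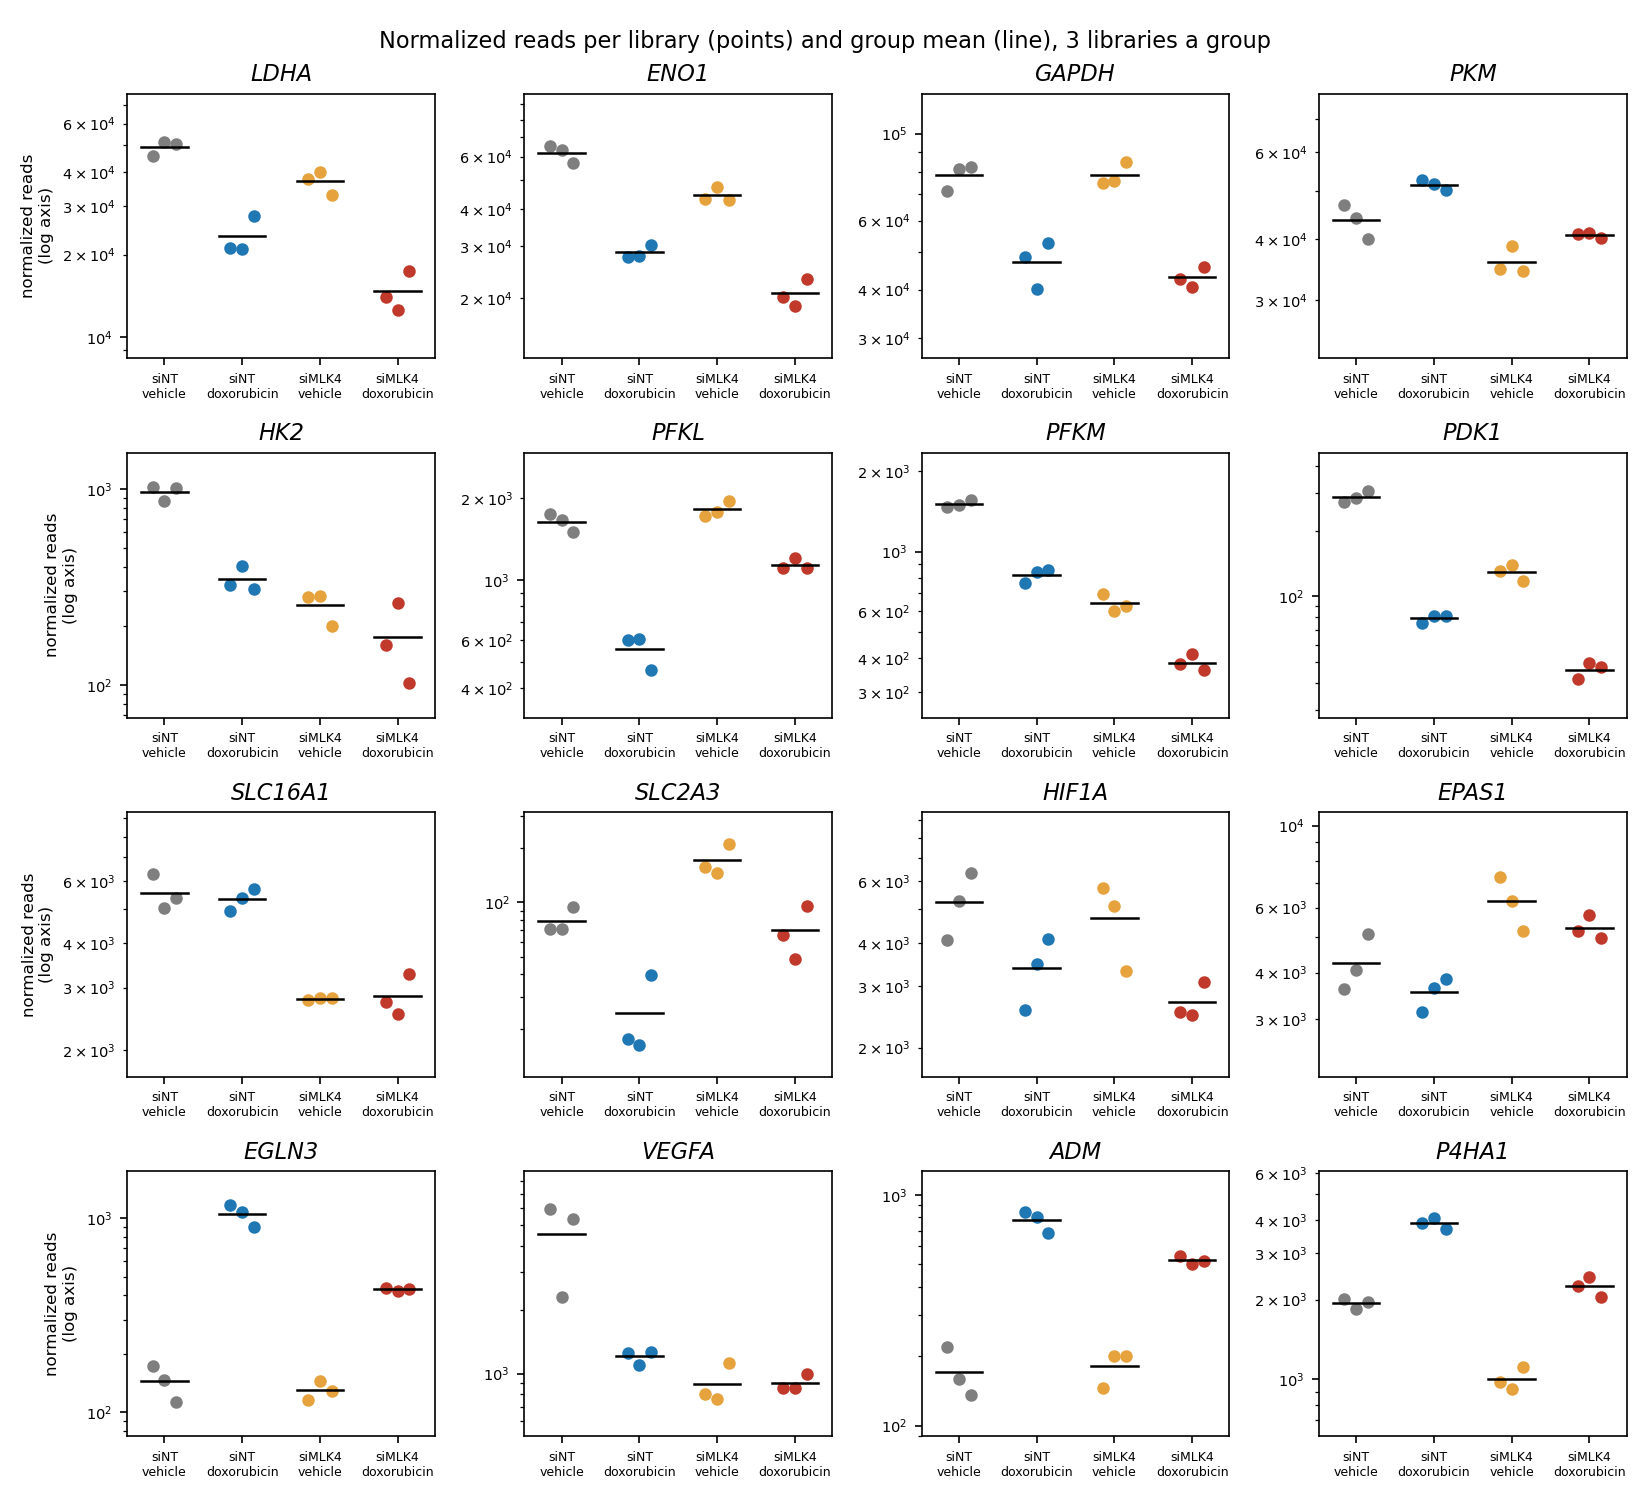
Normalized reads (vertical log axis) of 16 members in each of the 12 libraries, as points by group, with the mean of the 3 libraries as a line. The VEGFA panel shows 3 spread siNT vehicle libraries above the other 9, and the EGLN3 panel shows the siMLK4 doxorubicin libraries at 419 to 438, between the vehicle groups and the siNT doxorubicin libraries.

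MLK4 depletion without the drug touched fewer genes. With vehicle, 1 member was higher in siMLK4 than in siNT cells (background 2.51%) and 7 were lower (background 3.14%), that is 2.38% and 16.7% of the members. At an adjusted p under 0.05 the counts were 3 (12.7%) and 15 (13.0%), with a median log2 fold change of −0.17 over the members and 0.01 over all genes. With doxorubicin in both arms, 2 members were higher (2.66%) and 5 lower (2.93%), and at an adjusted p under 0.05 the counts were 6 (12.7%) and 15 (12.1%), with a median of −0.25 against 0.02. The vehicle and doxorubicin comparisons share no library, but again share the pooled spread of the fit. In both, 4 members, HK2, PFKM, SLC16A1 and P4HA1, were lower (57.1% of the vehicle list and 80% of the doxorubicin list), and SLC2A3 was higher. Over all genes, 53.9% of those lower with vehicle and 57.8% of those lower with doxorubicin were lower in both, and 32.3% and 30.5% of those higher were higher in both. Each shares libraries with the doxorubicin comparisons above, so agreement between the knock-down and the drug is not read from them. With library totals the median with vehicle was −0.05 against 0.11 over all genes (and −0.26 to −0.10 when 1 library was left out, with the deposited values), and the counts were 1 higher and 6 lower with vehicle, and 2 higher and 3 lower with doxorubicin; with log2 of normalized reads plus 1 they were 0 and 7, and 2 and 7.

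VEGFA had a 5.03-fold lower mean in siMLK4 than in siNT cells with vehicle (log2 fold change −2.17 ± 0.26, adjusted p = 5.2e-05); with doxorubicin in both arms the change was −0.40 and did not pass. HK2 was 3.81-fold lower with vehicle (−1.75 ± 0.21, adjusted p = 4.6e-05) and 1.98-fold lower with doxorubicin (−0.88 ± 0.21, adjusted p = 0.0072), the latter lost with library totals (−0.82, adjusted p = 0.013), with only the 6 libraries compared in the fit, and in 7 of 12 fits that left out 1 library. These were the fits without siNT vehicle library 2, siMLK4 vehicle library 2, any siNT doxorubicin library, or siMLK4 doxorubicin library 1 or 3, with values from −0.95 to −0.62 and adjusted p up to 0.037. PFKM was 2.34-fold and 2.12-fold lower (−1.17 ± 0.10 and −0.99 ± 0.10). SLC16A1 had 6256, 5036 and 5357 normalized reads in siNT cells with vehicle and 2759, 2807 and 2801 in siMLK4 cells. With doxorubicin it had 4935, 5376 and 5708 in siNT and 2724, 2519 and 3273 in siMLK4 cells, again without overlap (−0.97 ± 0.12 and −0.90 ± 0.12). The lactate carrier differed with the siRNA, and its change with the drug did not pass.

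PDK1 was 2.22-fold lower in siMLK4 cells with vehicle (−0.92 ± 0.10), P4HA1 1.93-fold (−0.92 ± 0.10) and CA12 1.95-fold (−0.82 ± 0.14). With doxorubicin P4HA1 passed (−0.78 ± 0.10). PDK1 was 1.73-fold lower (−0.47, limma adjusted p = 0.0041) and CA12 1.99-fold lower (−0.70, limma adjusted p = 0.0024) with doxorubicin. Both were without overlap there but short of the limit on size. The CA12 call was lost with library totals (−0.69), and the P4HA1 call with doxorubicin was lost with library totals (−0.70) and without siNT doxorubicin library 2 (−0.75) or siMLK4 doxorubicin library 3 (−0.72). EGLN3 did not differ by the test with vehicle (−0.11, 95% CI −0.39 to 0.18) and was 2.43-fold lower with doxorubicin (−1.18 ± 0.13, adjusted p = 3.4e-05). Those that were higher in siMLK4 cells were few. SLC2A3 was 2.15-fold higher with vehicle (0.79 ± 0.18, adjusted p = 0.0058) and 2.86-fold with doxorubicin (0.81 ± 0.18, adjusted p = 0.0053), calls lost in 5 and 4 of 12 fits that left out 1 library. With vehicle these were the fits without siNT library 1 or 2 or any siMLK4 library (0.66 to 0.87), and with doxorubicin those without siNT library 1 or 2 or siMLK4 library 1 or 3 (0.65 to 0.82). The vehicle call was also lost with log2 of normalized reads plus 1 (1.09, adjusted p = 0.021) and with only the 6 libraries compared in the fit (adjusted p = 0.015). PFKL was 2.04-fold higher with doxorubicin (0.97 ± 0.11, adjusted p = 4.5e-05), against 0.15 with vehicle. HIF1A gave −0.16 and −0.30, and EPAS1 gave 0.55 (adjusted p = 0.014) and 0.58 (adjusted p = 0.011), with every siMLK4 library above every siNT library of the same treatment.

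**Figure D3:**
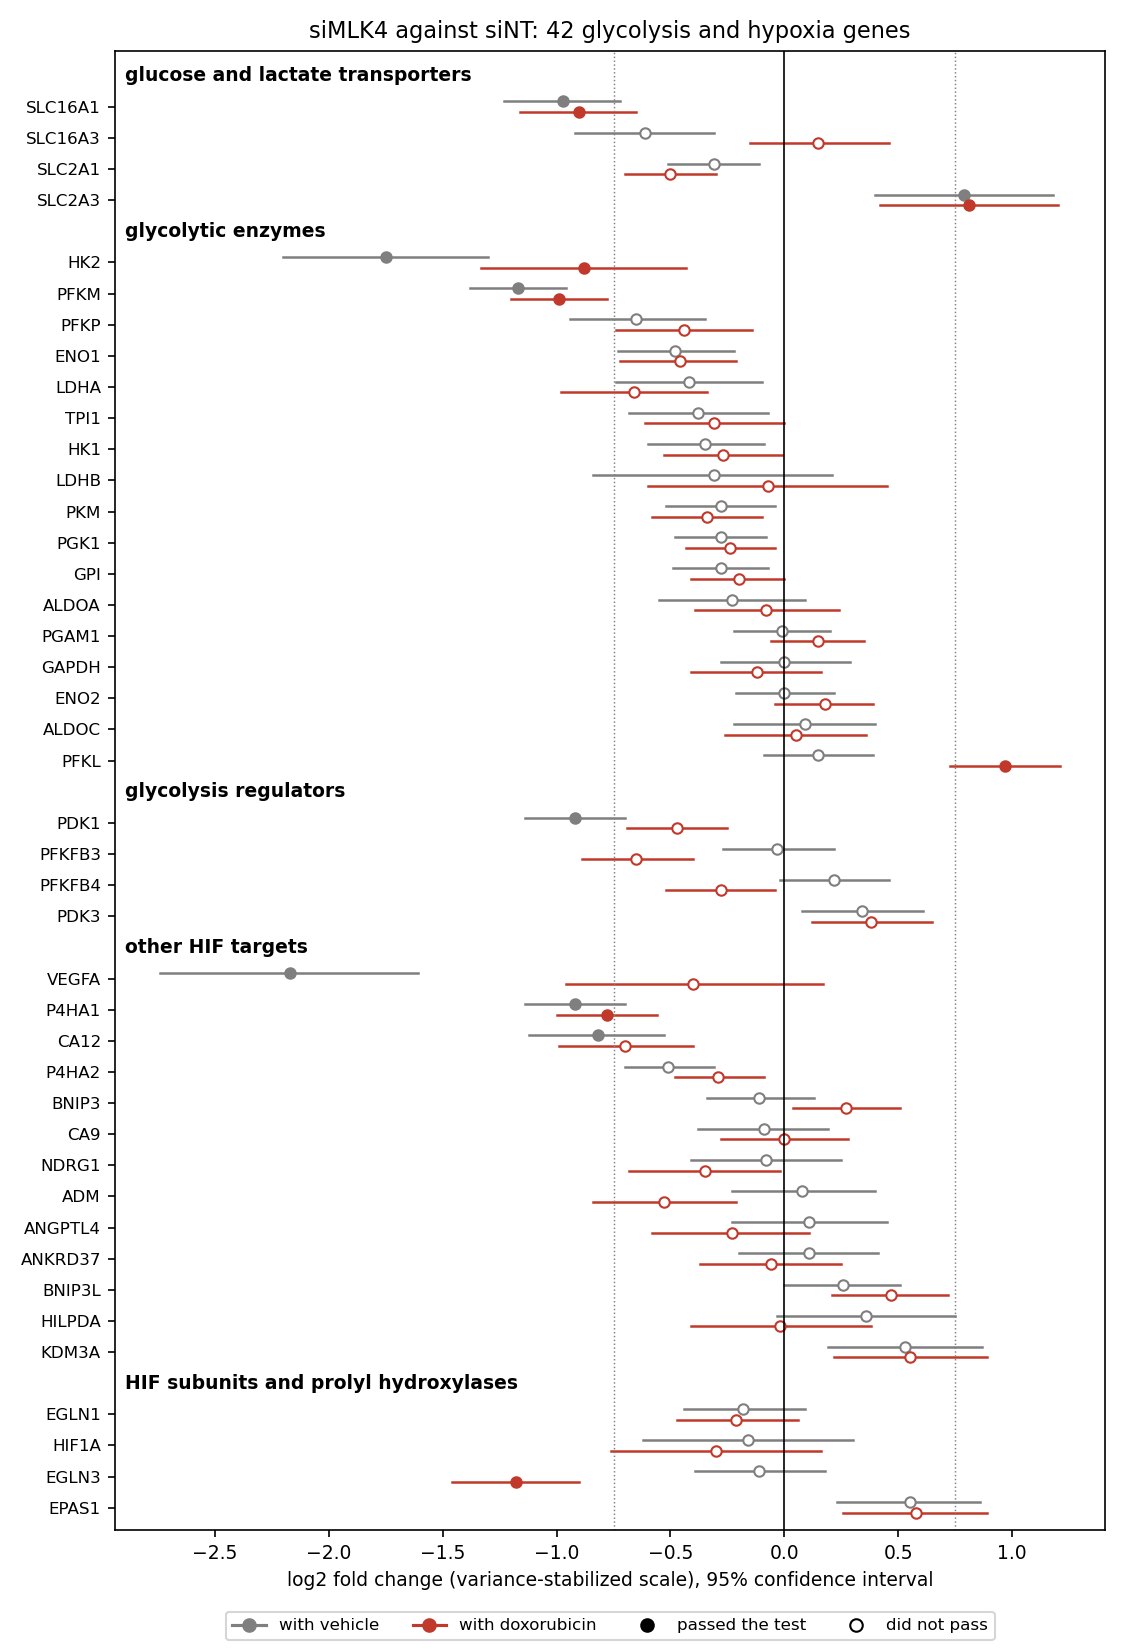
Log2 fold change of each member, siMLK4 against siNT, on the variance-stabilized scale (horizontal axis) with vehicle (grey) and with doxorubicin (red), lines giving the 95% confidence interval and filled points those that passed the test. VEGFA at −2.17 and HK2 at −1.75 with vehicle lie farthest left, and PFKL at 0.97 with doxorubicin farthest right.

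An siRNA can also lower transcripts that match only its seed, bases 2 to 8 of the guide strand. The 4 guides of the siMLK4 pool, as designed by the supplier, are shown with the seed in capitals, because 6 of the 7 members lower with vehicle carry a site for at least 1 of them.
siMLK4_1: uCUCUCUGagcaucuuucc
siMLK4_2: uUUACCUUgggcuucuccu
siMLK4_3: aUUCCCUCucguuucuucu
siMLK4_4: uUUCUUUGcaaucuguucu

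A site here is the 7-base complement of a seed in the part of the longest coding transcript after the stop codon. Of 13571 genes with such a stretch, 47.4% held at least 1 site, and 14 of the 42 members did. With vehicle, 6 of the 7 lower members held one, against 62.8% of all genes lower in that comparison; with doxorubicin it was 4 of 5, against 64.5%. HK2 held a site for siMLK4_1, VEGFA for siMLK4_1 and siMLK4_4, and SLC16A1, EGLN3 and P4HA1 for siMLK4_3. CA12 and PDK1 held sites for 3 of the 4, PDK1 in a stretch of 12700 bases. PFKM held none. PDK3 held all 4 and was not lower in siMLK4 cells (0.34 and 0.38). No second, single siRNA was sequenced, and the part of the seed matches in these differences was not tested.

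The response to doxorubicin was compared between siMLK4 and siNT cells by the interaction of the 12-library fit. With limma 0 of the 42 members passed (0.276% of all genes did), and limma-voom and log2 of normalized reads plus 1 also gave 0. At an adjusted p under 0.05 there were 3 members (1.2% of all genes), and 10 were under an unadjusted p of 0.05 (14.5% of all genes). The 3 were EGLN3, which rose less in siMLK4 cells (−1.07 ± 0.19, adjusted p = 0.013), PFKL, which was lowered less (0.82 ± 0.16, adjusted p = 0.022), and VEGFA (1.78 ± 0.37, adjusted p = 0.033). The siNT vehicle libraries of VEGFA ranged from 2282 to 5956, and its adjusted p was under 0.05 only without siNT vehicle library 2 (2.20) or siMLK4 vehicle library 3 among 12 fits that left out 1 library, with values of 1.52 to 1.81 in the others. Over all fits run the adjusted p (limma) of VEGFA ranged from 0.00068 to 0.089. PFKL kept an adjusted p under 0.05 in 7 of 12 such fits, all but those without siNT doxorubicin library 3 or library 1 or 2 of either siMLK4 group (0.71 to 0.84), and EGLN3 in 11 of 12, all but the fit without siMLK4 doxorubicin library 1 (−1.08, adjusted p = 0.05). HK2 (0.87, 95% CI 0.24 to 1.5), PFKFB3 (−0.62, 95% CI −0.97 to −0.27) and ADM (−0.61, 95% CI −1.05 to −0.16) did not pass after adjustment. Among the abundant enzymes the interaction was 0.02 for ENO1 (95% CI −0.35 to 0.38), −0.13 for GAPDH (95% CI −0.53 to 0.28), −0.25 for LDHA (95% CI −0.70 to 0.21) and −0.06 for PKM (95% CI −0.40 to 0.28).

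Several steps have more than 1 isoenzyme, and their shares were computed without a test. Per kilobase of the longest transcript, HK2 made up 15.4% ± 1.49 (SD, n = 3) of the reads of HK1 and HK2 together in siNT cells with vehicle, 9.29% ± 0.538 with doxorubicin, and 5.69% in both siMLK4 groups (± 0.673 and ± 1.71). The hexokinase relative HKDC1, with means of 1845, 326, 1434 and 279 normalized reads in the 4 groups, is not part of these shares. PFKL made up 14.9% ± 1.84 of phosphofructokinase reads in siNT cells with vehicle and 7.38% ± 0.863 with doxorubicin, and 25.3% ± 4.46 and 19.3% ± 0.965 in siMLK4 cells. The PFKL shares of the siMLK4 libraries, 18.7% to 30.5%, lay above those of the siNT libraries, 6.49% to 17.0%. PFKP was the largest in every group at 59.8% to 74.5%. The group means of ENO1 were 98.3% to 99.2% of ENO1 and ENO2 together, without ENO3, and those of LDHA 97.6% to 98.4% of LDHA and LDHB, where 33.4% of LDHB exon bases are shared with another gene.

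HIF1A had 61.4% ± 1.70 of the 2 alpha subunits together in siNT cells with vehicle, 55.1% ± 3.35 with doxorubicin, 49.2% ± 3.32 in siMLK4 cells with vehicle and 39.9% ± 4.41 with both. The siNT libraries of each treatment did not overlap the siMLK4 libraries of the same treatment (59.5% to 62.9% against 45.4% to 51.5%, and 51.5% to 58.2% against 36.1% to 44.7%). P4HA1 went from 65.7% ± 1.67 to 80.1% ± 0.687 of the collagen hydroxylase alpha subunits with doxorubicin in siNT cells. The siMLK4 shares of P4HA1 were 58.8% ± 3.26 and 74.1% ± 0.712. These shares rest on the transcript length used; with the annotated main transcript PFKL was 22.9%, 11.8%, 36.3% and 28.7% of phosphofructokinase in the 4 groups.

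**Figure D4:**
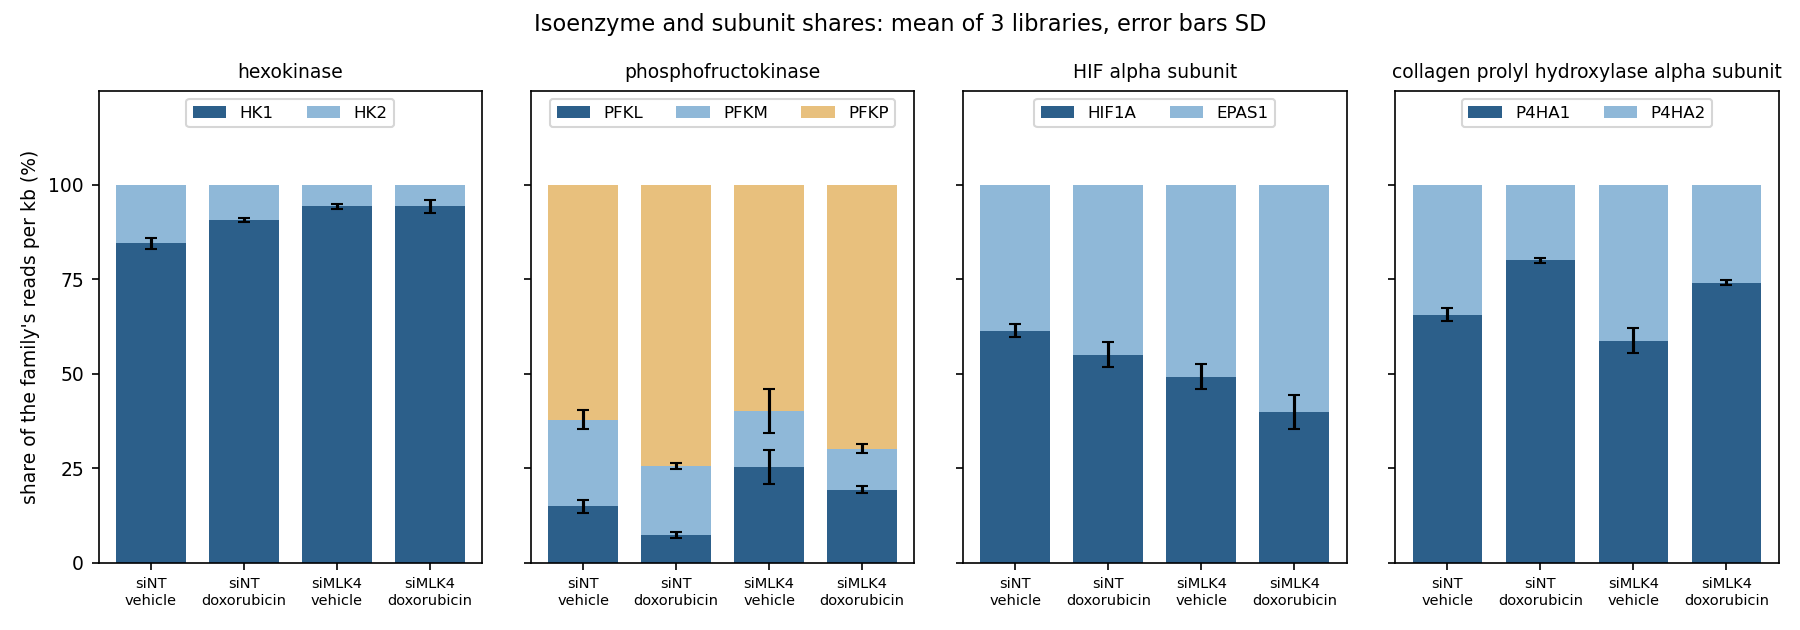
Share of a family's normalized reads per kilobase (vertical axis, percent, from 0) held by each isoenzyme or subunit in the 4 groups, as the mean of 3 libraries with SD as error bars. The HIF1A share is 61.4% in siNT cells with vehicle and 39.9% in siMLK4 cells with doxorubicin, and the HK2 share, of HK1 and HK2 only, is 15.4% and 5.69% in the same groups.

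Genes of the same pathways outside the 42 were read from lists of names. Over all genes 12.1% rose and 10.6% fell with doxorubicin in siNT cells and 12.6% and 10.6% in siMLK4 cells, and the lists are read against these shares. Of 35 further HIF targets, 4 rose (11.4%) and 6 fell (17.1%) in siNT cells and 5 rose (14.3%) and 4 fell (11.4%) in siMLK4 cells, most of these shares being near those of all genes. DDIT4, an inhibitor of the mTOR complex, averaged 8718 ± 4199 normalized reads (SD) in siNT cells with vehicle and 742 ± 181 with doxorubicin (log2 fold change −3.35 ± 0.42, SE). In siMLK4 cells it averaged 2709 ± 1925 and 655 ± 186 (−1.78 ± 0.42, SE). PLOD1, a lysyl hydroxylase, fell in siNT cells (−1.14) and its relative PLOD2 rose in both (1.5 and 1.23). GBE1, the glycogen branching enzyme, fell in both (−0.87 and −1.04). CXCR4, a chemokine receptor, rose from a mean of 0.737 normalized reads, under the level of 3 reads, to 73.1 in siNT cells, with means of 0.998 and 127 in siMLK4 cells.

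Against siNT, 0 of these 35 were higher and 3 lower in siMLK4 cells with vehicle (2.51% and 3.14% of all genes), and 2 were higher and 1 lower with doxorubicin (2.66% and 2.93% of all genes). STC2, a secreted glycoprotein, averaged 5792 ± 2936 normalized reads (SD) in siNT and 1340 ± 632 in siMLK4 cells with vehicle (−2.00 ± 0.35, SE). DDIT4 was also lower in siMLK4 cells with vehicle (−1.74 ± 0.42, SE), with overlapping libraries. LOX, which crosslinks collagen, was higher in siMLK4 cells with doxorubicin (1.14 ± 0.15), as was KDM4B, a histone demethylase (0.90 ± 0.12).

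Of 20 regulators of HIF, 1 rose and 4 fell with doxorubicin in siNT cells, 0 rose and 2 fell in siMLK4 cells, where 10.6% of all genes fell in each, and 0 passed between the siRNAs with vehicle or doxorubicin. The chaperone HSP90AA1, which holds HIF1A protein, averaged 104501 normalized reads with vehicle and 32456 with doxorubicin in siNT cells, and 82673 and 26261 in siMLK4 cells, a fall in both (−1.67 ± 0.16 and −1.65 ± 0.16). RACK1, a ribosomal scaffold that can send HIF1A to the proteasome, fell in both (−0.90 and −1.30), EIF4EBP1, a repressor of cap-dependent translation, fell in siNT cells (−1.09), and CITED2, which competes with HIF for its coactivator, rose in siNT cells (1.09 ± 0.17). ARNT gave −0.36 and −0.56 and VHL −0.61 and −0.59, short of the limit on size.

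Of 28 further genes of glycolysis and pyruvate use, 5 rose (17.9%) and 3 fell (10.7%) in siNT cells and 6 rose (21.4%) and 3 fell (10.7%) in siMLK4 cells, the shares that fell being near the 10.6% of all genes. ENO3, the muscle enolase, averaged 89.4 normalized reads in siNT cells with vehicle and 703 with doxorubicin, and 102 and 984 in siMLK4 cells (2.45 ± 0.20 and 2.76 ± 0.20), opposite to ENO1. HKDC1, a hexokinase relative, averaged 1845 and 326, and 1434 and 279 (−2.33 ± 0.15 and −2.18 ± 0.15). The subunits of the pyruvate dehydrogenase complex went different ways: DLAT and DLD fell (−1.15 and −0.88 in siNT, −0.79 and −0.85 in siMLK4 cells), PDHX rose (0.84 and 0.97), and PDHA1 (−0.70 and −0.53) and PDHB (0.06 and −0.08) did not pass. SLC2A13, a carrier of myo-inositol, rose in both (1.07 and 1.36). MPC1, a subunit of the mitochondrial pyruvate carrier, averaged 320 and 390 normalized reads in siNT cells and 226 and 691 in siMLK4 cells. It rose in siMLK4 cells (1.43 ± 0.13) and was the 1 gene of the list to pass the interaction test (1.19 ± 0.18, adjusted p = 0.0056).

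Between the siRNAs, 2 genes of that list were higher and 1 lower with vehicle (2.51% and 3.14% of all genes), and 2 were higher and 0 lower with doxorubicin (2.66% and 2.93%). SLC2A12, a glucose carrier, was higher in siMLK4 cells with vehicle and with doxorubicin (1.27 ± 0.16 and 1.03 ± 0.16). PDK4 was higher with vehicle (0.78 ± 0.14) and PDP1, the phosphatase that reverses PDK action, was lower (−0.95 ± 0.16). Of the 7 pentose phosphate genes, 0 rose and 1 fell with doxorubicin in siNT cells, 0 rose and 3 fell in siMLK4 cells, and 0 passed between the siRNAs. TKT, transketolase, fell in both (−1.31 ± 0.16 and −1.91 ± 0.16).

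Some levels are uncertain because of how reads were counted. In the GENCODE 44 annotation 42.8% of ALDOA exon bases are shared on the same strand with ENSG00000285043, 55.8% of EGLN1 with ENSG00000287856 and 33.4% of LDHB with ENSG00000285854, and the counter's default drops reads that fall on exons of more than 1 gene. ALDOA averaged 58.4 to 78.1 normalized reads, with changes of −0.04 and 0.11 with doxorubicin; reads were counted on GRCh38 transcripts of a release not given in the sources used here, and the part of shared exons in this level was not tested. Runs of 50 bases that also occur in other transcripts made up 69.7% of EGLN1, 58.5% of LDHB, 56.8% of PGAM1, 52.3% of ALDOA, 21.4% of SLC2A3, 20.8% of TPI1, 17.9% of NDRG1, 14.4% of GPI, 12.2% of LDHA, 11% of BNIP3 and 10.8% of GAPDH, so reads of such transcripts could have been counted there or lost.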

How the data were processed

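The deposited table holds log2 values of 17013 genes in 12 libraries, made by the authors with the variance-stabilizing transformation of DESeq2 1.26.0. Poly(A) mRNA libraries (KAPA HyperPrep, per the methods; the labels say total RNA) were sequenced paired-end, trimmed with Trimmomatic 0.39, aligned with HISAT2, freed of optical duplicates and counted by strand with HTSeq 0.6.0. The methods name GRCh38 and the submitters' processing notes hg19, so coordinates given here are those of GENCODE 44 or RefSeq on GRCh38 and play no part in the values.

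The transformation was inverted: values came out as whole reads within 0.05 for 100% of the entries of each library, 16759025 to 19302248 reads in all. These gave the normalized reads. Size factors were 0.852 to 1.199, and the 10 most abundant genes took 4.37% to 6.66% of reads. Counting error is not the limit at this depth except for genes of few reads.

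limma 3.58.1 (R 4.3.3) was fitted to the deposited log2 values with 4 group means, a mean-variance trend and all 12 libraries, with Benjamini-Hochberg adjustment over 17013 genes. On simulated data for doxorubicin in siNT cells over 17013 genes, 100% of 200 genes changed by 1.5 (log2) were recovered with 0 false calls. No smaller change was simulated, so the recovery of changes near the limit on size was not tested. The result was not split by read level, so it cannot speak for genes of few reads. Alternatives were library totals, TMM, log2 of normalized reads plus 1, limma-voom on the recovered reads, a 10-read filter, only the compared groups, a replicate block, a looser threshold and leaving out each library.

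Every member was named. Library values were given for HIF1A, EPAS1 and, per comparison, the 4 called members with the largest change in each direction; of each other list, the 2 called genes with the largest change each way whose libraries did not overlap were given, and any other gene given was chosen after its values were seen. Some genes that this rule names are not reported here. The members, lists and tests were chosen with earlier results of these data known.

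Replicate numbers were checked as pairs by the correlation of same-numbered deviations from the group means. These were 0.46, 0.11 and 0.2 between the siNT groups and 0.19, 0.52 and 0.56 between the doxorubicin groups, but −0.08, 0.18 and 0.34 between the siMLK4 groups and −0.72, 0.32 and −0.52 between the vehicle groups. The labels name no shared day or batch.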

Additional observations from a re-analysis of the deposited data

Results flagged for a closer look

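For 3 members the response to doxorubicin differed between siMLK4 and siNT cells by the interaction term at an adjusted p under 0.05, as for 1.2% of all genes, though none passed the stricter rule in the main fit. The interaction, siMLK4 minus siNT, was 0.82 for PFKL (adjusted p = 0.022, limma), 1.78 for VEGFA (adjusted p = 0.033, limma) and −1.07 for EGLN3 (adjusted p = 0.013, limma). The direction was the same in every fit that left out 1 library, with ranges of 0.71 to 0.88, 1.52 to 2.20 and −1.18 to −0.95. The adjusted p was no longer under 0.05 in 5 of 12 such fits for PFKL, 10 of 12 for VEGFA and 1 of 12 for EGLN3. For VEGFA the adjusted p (limma) ranged from 0.00068 to 0.089 over all fits run, under the stricter limit of 0.01 at its lowest.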

How the results depend on the processing

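Scaling by library totals moved the median of the members to −0.25 and −0.27 (doxorubicin in siNT and siMLK4 cells), and to −0.05 and −0.17 (siMLK4 against siNT with vehicle and doxorubicin), with 3 members lower in the last comparison. With log2 of normalized reads plus 1 the medians were −0.52 (doxorubicin, siNT), −0.22 (knock-down, vehicle) and −0.29 (knock-down, doxorubicin), and with voom −0.52, −0.23 and −0.29. With log2 plus 1 and with voom, 6 members rose and 14 fell with doxorubicin in siNT cells, and 5 rose and 10 fell in siMLK4 cells. No member was higher in siMLK4 cells with vehicle under log2 plus 1 or with only the compared groups. At an adjusted p under 0.05 alone, 24 and 23 members were lower with doxorubicin in siNT and siMLK4 cells, 3 higher and 15 lower, and 6 higher and 15 lower, between the siRNAs with vehicle and doxorubicin, and 2 higher and 1 lower in the interaction.

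Leaving out 1 library in turn gave medians of −0.49 to −0.43 and −0.46 to −0.41 for doxorubicin in siNT and siMLK4 cells, −0.26 to −0.10 and −0.26 to −0.22 for the knock-down with vehicle and doxorubicin, and 0.01 to 0.08 for the interaction. Counts higher and lower were 5 to 6 and 11 to 14, 3 to 5 and 8 to 10, 0 to 1 and 7 to 8, 1 to 2 and 3 to 5, and 0 to 1 and 0 in the same order.

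Of 47 calls on single members, 37 held in every fit that left out 1 library and 34 in every alternative run for them; the 2 CA9 calls among these 34 had no fit under the 10-read filter, which removes CA9. HIF1A ranged from −0.33 to 0.07 (knock-down, vehicle) in these fits, turning positive without siMLK4 vehicle library 3. Its interaction ranged from −0.37 to 0.02 and turned to 0.02, 0.01 and 0.02 without siNT vehicle 1, siNT doxorubicin 3 and siMLK4 vehicle 1. The EPAS1 interaction ranged from −0.11 to 0.14, and turned to −0.02 with library totals and to −0.11, −0.05, −0.10 and −0.03 without siNT vehicle 3, siNT doxorubicin 1, siMLK4 vehicle 3 and siMLK4 doxorubicin 2. The causes were not tested.

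The replicate block, used although not every pair of same-numbered libraries deviated together, changed 1 call: 8 in place of 9 members fell with doxorubicin in siMLK4 cells, HIF1A being lost (−0.76, adjusted p = 0.012). It changed no other call on a member.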
